A study of Mus musculus with 25 samples.

Results

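The 8 cathepsins Ctsa, Ctsb, Ctsc, Ctsd, Ctsh, Ctsl, Ctss and Ctsz and the cathepsin inhibitor cystatin C (Cst3) were followed in RNA from mouse oligodendrocyte precursor cells after white matter stroke. They were taken by symbol, 9 of the 23351 genes in the deposited table. The list was chosen by their RPKM in Day 5, Day 15 and Control libraries, which were known when it was drawn up. Their levels and differences between groups are therefore given as a description without a test. Tests are given for other genes of the same pathway and for the variation among libraries of 1 group. The pathway and marker lists used there were also chosen with earlier results of these data known.

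The series is an RNA-seq study of oligodendrocyte precursor cells, the dividing cells that give rise to myelin-forming oligodendrocytes, collected from mouse brain by laser capture microdissection. That method cuts chosen areas out of a tissue section under a microscope. There were 8 libraries at Day 5 of white matter stroke, 7 libraries at Day 15 of white matter stroke and 10 Control libraries. The labels give a condition and a day only, so the way the stroke was made, the handling of the controls, and the strain, age and sex of the mice could not be stated here. The labels do not tie libraries to animals, and libraries that share an animal would make the p-values below too small.

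Cathepsins are proteases of the lysosome, the acidic compartment in which a cell breaks down proteins it has taken up or no longer needs. Ctsb, Ctsc, Ctsh, Ctsl, Ctss and Ctsz encode cysteine proteases, Ctsd an aspartic protease, and Ctsa a serine carboxypeptidase. Cystatin C is a secreted inhibitor that blocks cysteine cathepsins outside and inside the cell. In brain, microglia and macrophages are rich in these enzymes, and astrocytes, microglia and choroid plexus make cystatin C.

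Promoters are shown for 3 members because the cathepsins varied together among libraries and the genes carry letters of motifs known from lysosomal or immune genes. RefSeq windows on build GRCm38.p6, reaching from 250 bases before a gene's start to 50 after it, were at hand for 7 of the 9 genes (8 windows, since Ctsa has 2 starts), and not for Ctsb or Ctsh. The E-box CACGTG, which factors of the MiT/TFE family can bind at lysosomal genes, was in the windows of 3 of the 7 genes (Ctsa, Ctsd and Ctsl) and in 7.15% of all 32851 promoters. The longer TCACGTGA, which contains CACGTG, was in Ctsa and Ctsd and in 0.974% of all promoters. The interferon-response motif, GAAA, any 2 bases and GAAA again, was in Ctss and in 3.44% of all promoters, and the PU.1 motif GAGGAAGT was in Ctss and Ctsc and in 3.2%. Both strands were searched. A match describes the letters only. Each stretch below has 280 bases and ends 30 bases from the annotated start, and capitals mark the motifs. The Ctsd stretch (chr7:142387798-142388077, minus strand) holds CACGTG 245 bases and TCACGTGA 99 bases before the start. The stretch at the second Ctsa start (chr2:164833523-164833802, plus strand) holds TCACGTGA 13 bases before and 4 bases after it. The Ctss stretch (chr3:95526536-95526815, plus strand) holds the interferon-response motif 21 bases before the start and GAGGAAGT on the other strand from 2 bases before it.
Ctsd: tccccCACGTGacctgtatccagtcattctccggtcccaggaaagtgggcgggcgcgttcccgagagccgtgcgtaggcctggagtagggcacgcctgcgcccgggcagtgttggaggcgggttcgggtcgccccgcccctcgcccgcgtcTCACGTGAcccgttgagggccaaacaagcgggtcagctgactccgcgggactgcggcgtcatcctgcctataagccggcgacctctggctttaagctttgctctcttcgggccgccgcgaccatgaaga
Ctsa: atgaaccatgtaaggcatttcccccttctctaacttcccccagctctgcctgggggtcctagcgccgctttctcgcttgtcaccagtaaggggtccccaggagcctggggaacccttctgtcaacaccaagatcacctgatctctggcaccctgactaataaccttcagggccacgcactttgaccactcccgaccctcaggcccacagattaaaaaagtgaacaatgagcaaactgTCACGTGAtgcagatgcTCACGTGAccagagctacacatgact
Ctss: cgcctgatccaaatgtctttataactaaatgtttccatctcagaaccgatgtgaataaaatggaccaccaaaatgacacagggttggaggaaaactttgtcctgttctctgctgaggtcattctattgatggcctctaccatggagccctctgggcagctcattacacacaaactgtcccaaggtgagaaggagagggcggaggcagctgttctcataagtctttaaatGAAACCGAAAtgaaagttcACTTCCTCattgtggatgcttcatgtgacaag

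Library facts bear on every value below. Values are RPKM, read counts scaled to gene length and library size, and the depth of each library is unknown. The number of genes at an RPKM of 1 or more was 2353 to 6592 at Day 5, 1749 to 5266 at Day 15 and 1306 to 4320 in Control. The RPKM sum without the ribosomal RNA precursor Rn45s was 15070 to 69709 at Day 5, 11722 to 51081 at Day 15 and 7210 to 33982 in Control. One library stood apart for these genes. Day 15 replicate 5 had the highest level of all 25 libraries for all 9 members, and Day 15 differences are given with and without it. The labelled cell type was checked against 14 precursor markers, whose summed RPKM was 21.5 to 114 at Day 5, 16.2 to 283.5 at Day 15 and 10.5 to 115.8 in Control. The precursor marker Pdgfra averaged 7.03, 1.34 and 1.11 RPKM at Day 5, at Day 15 and in Control. The proteoglycan Cspg4 averaged 1.75, 4.27 and 1.11 RPKM in the same order, with 3 Control libraries at 0. The myelin gene Mbp averaged 104, 121 and 260 RPKM in the same order, above either precursor marker in each group.

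**Figure D1:**
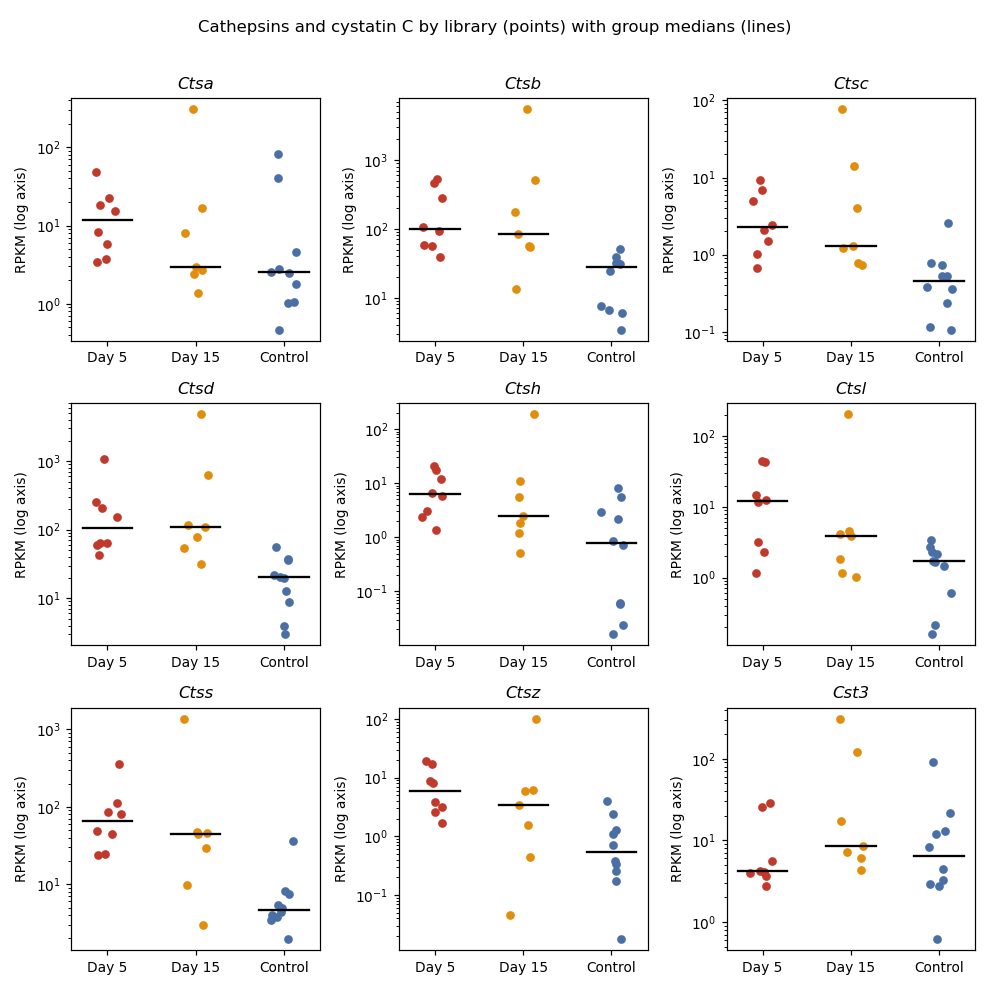
RPKM (log axis) of the 8 cathepsins and Cst3 in each library (points) at Day 5, at Day 15 and in Control, with the group median as a line. For Ctsb, 7 of 8 Day 5 libraries lie above the highest Control library, while for Cst3 none does.

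Among the endopeptidases, which cut inside a protein chain, Ctsl differed less from Control than Ctss, Ctsd and Ctsb did. At Day 5, Ctss, Ctsd and Ctsb stood 3.32, 2.95 and 2.86 above Control on the log2(RPKM + 1) scale. At Day 15 they stood 2.59, 3.37 and 3.08 above Control on that scale.

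Ctss encodes cathepsin S, which keeps its activity at neutral pH and trims the invariant chain in antigen-presenting cells. Its lowest, median and highest RPKM were 24.0, 64.9 and 356 at Day 5, 2.93, 44.5 and 1377 at Day 15, and 1.96, 4.67 and 36.7 in Control. The Control high point was replicate 5, and the next Control library had 8.21 RPKM, below every Day 5 library. Thus 6 of 8 Day 5 libraries and 4 of 7 Day 15 libraries exceeded the highest Control library. The mean was 97.2 ± 108.9 RPKM at Day 5 (SD, n = 8), 222 ± 509 at Day 15 (SD, n = 7) and 8.03 ± 10.2 in Control (SD, n = 10). The difference was 3.32 (SE 0.78) at Day 5 and 2.59 (SE 0.81) at Day 15, the Day 15 value being 1.74 without replicate 5.

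Ctsb encodes cathepsin B, an abundant lysosomal cysteine protease that cuts inside chains and also removes dipeptides from their ends. Across libraries it had a lowest, median and highest RPKM of 38.3, 99.3 and 532 at Day 5, 13.5, 85.2 and 5408 at Day 15, and 3.43, 27.8 and 51.2 in Control. One Day 5 library, replicate 7, and 1 Day 15 library, replicate 9, lay within the Control range, and the others lay above it. The mean was 201.8 ± 196 RPKM at Day 5 (SD, n = 8), 900 ± 1995 at Day 15 (SD, n = 7) and 23.2 ± 16.4 in Control (SD, n = 10). The difference was 2.86 (SE 0.85) at Day 5 and 3.08 (SE 0.88) at Day 15, or 2.22 without Day 15 replicate 5.

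Ctsd encodes cathepsin D, the main aspartic protease of lysosomes. Its lowest, median and highest RPKM were 43.1, 107.5 and 1069 at Day 5, 31.2, 109.5 and 4876 at Day 15, and 2.96, 20.3 and 56.5 in Control. All but Day 5 replicate 4 exceeded the highest Control library at Day 5, and 5 of 7 libraries did at Day 15. The mean was 238 ± 344 RPKM at Day 5 (SD, n = 8), 842 ± 1791 at Day 15 (SD, n = 7) and 22.0 ± 17.0 in Control (SD, n = 10). The difference was 2.95 (SE 0.83) at Day 5 and 3.37 (SE 0.86) at Day 15, or 2.58 without Day 15 replicate 5.

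Ctsl encodes cathepsin L, a broad cysteine endopeptidase. The lowest, median and highest RPKM were 1.16, 12.1 and 44.6 at Day 5, 1.00, 3.91 and 205 at Day 15, and 0.157, 1.69 and 3.34 in Control. The groups overlapped, with 5 of 8 Day 5 libraries and 4 of 7 Day 15 libraries above every Control library. The difference was 2.15 (SE 0.71) at Day 5 and 1.36 (SE 0.73) at Day 15. The Day 15 value was 0.52 without replicate 5, whose 205 RPKM stood far above the next Day 15 library at 4.51 RPKM.

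The other 4 cathepsins are exopeptidases, which trim residues from chain ends. Ctsz encodes cathepsin Z, a carboxypeptidase also called cathepsin X. Its lowest, median and highest RPKM were 1.68, 5.99 and 19.0 at Day 5, 0.0458, 3.47 and 101.4 at Day 15, and 0.0177, 0.545 and 4.05 in Control. The groups overlapped, with 4 of 8 Day 5 and 3 of 7 Day 15 libraries above the highest Control library. The difference was 1.96 (SE 0.64) at Day 5 and 1.49 (SE 0.66) at Day 15, or 0.76 without Day 15 replicate 5.

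Ctsh encodes cathepsin H, mainly an aminopeptidase. RPKM had a lowest, median and highest value of 1.37, 6.26 and 20.5 at Day 5, 0.509, 2.46 and 189.6 at Day 15, and 0.0160, 0.772 and 8.21 in Control. Control replicate 5 again held the Control high point, and 3 of 8 Day 5 and 2 of 7 Day 15 libraries exceeded it. The difference was 1.74 (SE 0.70) at Day 5 and 1.55 (SE 0.73) at Day 15, or 0.74 without Day 15 replicate 5.

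Ctsc encodes cathepsin C, the dipeptidyl peptidase that activates the serine proteases of leukocyte granules. Its lowest, median and highest RPKM were 0.668, 2.27 and 9.33 at Day 5, 0.733, 1.31 and 76.9 at Day 15, and 0.106, 0.450 and 2.61 in Control. It was the lowest of the 9 by median in each group, and 1 of 10 Control libraries reached an RPKM of 1. The difference was 1.31 (SE 0.58) at Day 5 and 1.74 (SE 0.60) at Day 15, or 1.09 without Day 15 replicate 5.

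Ctsa encodes cathepsin A, the protective protein that also holds beta-galactosidase and neuraminidase in the lysosome. Ctsa RPKM was, at its lowest, median and highest, 3.43, 11.8 and 47.9 at Day 5, 1.39, 2.96 and 305.8 at Day 15, and 0.465, 2.51 and 81.6 in Control. No Day 5 library and 1 Day 15 library, replicate 5, exceeded the highest Control library, and Control replicates 2 and 5 reached 81.6 and 40.7 RPKM. The difference was 1.22 (SE 0.80) at Day 5 and 0.83 (SE 0.83) at Day 15, and the Day 15 value was -0.02 without replicate 5. The printed stretches of Ctsa and Ctsd both hold TCACGTGA, and their Day 5 differences were 1.22 and 2.95.

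Cst3, the inhibitor, had overlapping levels in all 3 groups. Its lowest, median and highest RPKM were 2.75, 4.16 and 28.6 at Day 5, 4.28, 8.56 and 309 at Day 15, and 0.617, 6.37 and 90.1 in Control. No Day 5 library exceeded the highest Control library, replicate 4, and 2 of 7 Day 15 libraries did, replicates 3 and 5. The difference was -0.15 (SE 0.77) at Day 5 and 1.33 (SE 0.80) at Day 15, or 0.69 without Day 15 replicate 5. Over 40 alternatives the Day 5 difference ran from -1.77 to 0.23. Summed RPKM of 10 astrocyte markers, a cell type that makes cystatin C, was 22.3 to 778 at Day 5, 25.5 to 339 at Day 15 and 18.2 to 352 in Control, with 8 of 10 at a mean of 1 RPKM or more in each group. The first of these markers averaged 113, 66.0 and 42.5 RPKM for Gfap and 8.10, 22.6 and 3.52 RPKM for Aqp4 at Day 5, at Day 15 and in Control. The part of astrocyte RNA in the Cst3 levels was not tested.

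**Figure D2:**
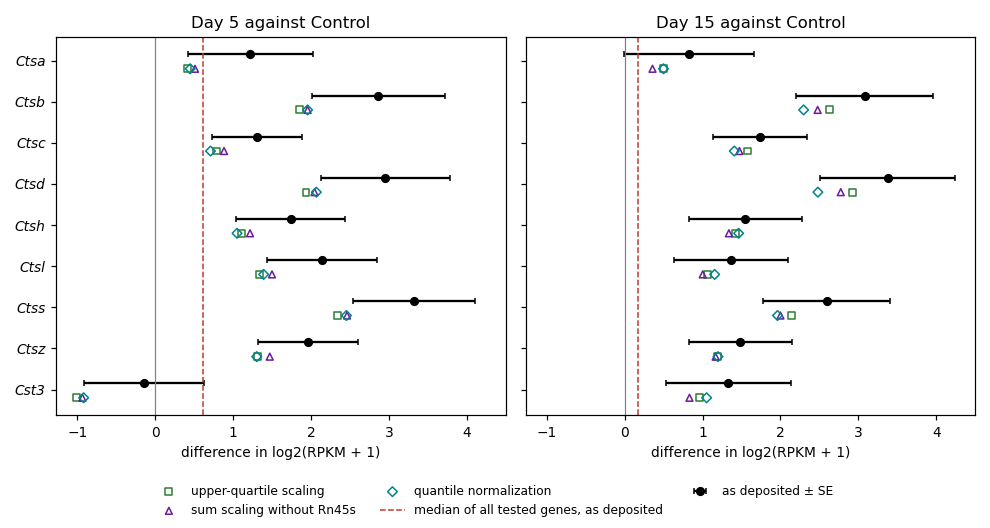
Differences in log2(RPKM + 1) from Control at Day 5 and Day 15 for each gene (black points, ± SE), with the same differences after 3 other scalings (open symbols) and the median of all tested genes (dashed line). Ctss, Ctsd and Ctsb lie farthest above the median of 0.61 at Day 5, and Cst3 lies below it at -0.15.

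These differences stand against a shift shared by most genes. The median over all 4319 genes tested (those reaching 1 RPKM in 7 or more libraries) was 0.61 at Day 5 and 0.17 at Day 15, and the median of the 9 members was 1.96 at Day 5 and 1.55 at Day 15. Of all tested genes 84.9% lay above Control at Day 5, and of the members 8 of 9 did. At Day 15, 62.1% of all genes and 9 of 9 members lay above Control. Without Day 15 replicate 5 these were 54.9% and 8 of 9, and the Day 15 median was 0.07 for all genes and 0.76 for the members. In the limma fit over all genes, with Benjamini-Hochberg adjustment, Ctsb, Ctsd and Ctss passed an adjusted p of 0.05 at Day 5, which is 3 of 9 members where 6.02% of all genes passed as higher and 6.04% in either direction. Since the members were picked with these values known, nothing is read from that count. No member passed at Day 15, where 0.0926% of all genes did (at an unadjusted p under 0.05, 6 of 9 members and 8.87% of all genes). No member had every Day 5 library above every Control library, where 0.533% of all genes did, and none had every Day 15 library above every Control library, where 0.0695% did. Both comparisons use the same Control libraries.

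Scaling changed the size of the differences. With upper-quartile scaling, scaling to the same RPKM sum without Rn45s, and quantile normalization, the Day 5 difference of Ctss was 2.34, 2.46 and 2.45. That of Ctsd was 1.94, 2.04 and 2.07. That of Cst3 was -0.93 with sum scaling and -0.92 with quantile normalization, and lower than both with upper-quartile scaling. The median of all genes at Day 5 was 0.10, 0.16 and -0.02 under these scalings, and 0.417%, 0.718% and 0.324% of all genes and no member passed as higher. At Day 15 the shares were 0.162%, 0.0232% and 0.0463%, again with no member. With the number of genes at an RPKM of 1 or more as a covariate, the Day 5 differences were 1.98 for Ctss, 1.46 for Ctsd, 1.03 for Ctsb and -1.77 for Cst3. They were 0.81 for Ctsz, 0.53 for Ctsl, 0.20 for Ctsc and 0.06 for Ctsh, against 1.96, 2.15, 1.31 and 1.74 without the covariate. Under all 40 alternatives, Ctsb, Ctsc, Ctsd, Ctsh, Ctsl, Ctss and Ctsz had differences above 0 at both days, some of them close to it. Some alternatives, such as another filter, cannot change a difference. The Ctsa difference at Day 5 turned to -0.90 with gene number as a covariate.

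Markers of other cells moved with the same groups. Summed RPKM of 20 microglia markers was 74.1 to 576 at Day 5, 87.7 to 536 at Day 15 and 10.1 to 131.6 in Control, with 18, 19 and 11 of the 20 at a mean of 1 RPKM or more in that order. Summed RPKM of 20 macrophage and leukocyte markers was 126.6 to 2305 at Day 5, 39.4 to 472 at Day 15 and 3.41 to 132 in Control, and 0, 2 and 6 of the 20 had a median of 0. The macrophage genes Lyz2 and Cd68 averaged 485 and 37.2 RPKM at Day 5, 93.6 and 8.37 RPKM at Day 15, and 6.58 and 2.65 RPKM in Control. The microglia genes Aif1 and Cx3cr1 averaged 1.24 and 4.33 RPKM at Day 5, 0.560 and 8.57 RPKM at Day 15, and 0.496 and 1.74 RPKM in Control. The part of these markers in the cathepsin levels was not tested. In bulk libraries such as these, fewer cells of a type and less RNA per cell cannot be told apart.

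The 8 cathepsins were also summed, as a description of genes chosen with these values known. Their summed RPKM (lowest, median, highest) was 227.5, 323.7 and 1787 at Day 5, 95.1, 257 and 12539 at Day 15, and 16.5, 59.4 and 149.6 in Control. All 8 Day 5 libraries and 5 of 7 Day 15 libraries exceeded the highest Control library. The RPKM sum without Rn45s was itself higher after stroke, with a median of 36696 at Day 5, 35366 at Day 15 and 18175 in Control. How often other sets of genes do the same was not computed. As a share of the RPKM sum without Rn45s, the cathepsins made up 0.643%, 1.36% and 2.64% at Day 5 (lowest, median, highest), 0.727%, 0.942% and 24.5% at Day 15, and 0.117%, 0.382% and 0.698% in Control. On that scale 6 of 8 Day 5 libraries and all 7 Day 15 libraries exceeded every Control library. Without replicate 5 the Day 15 share was 0.727% to 1.83%.

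**Figure D3:**
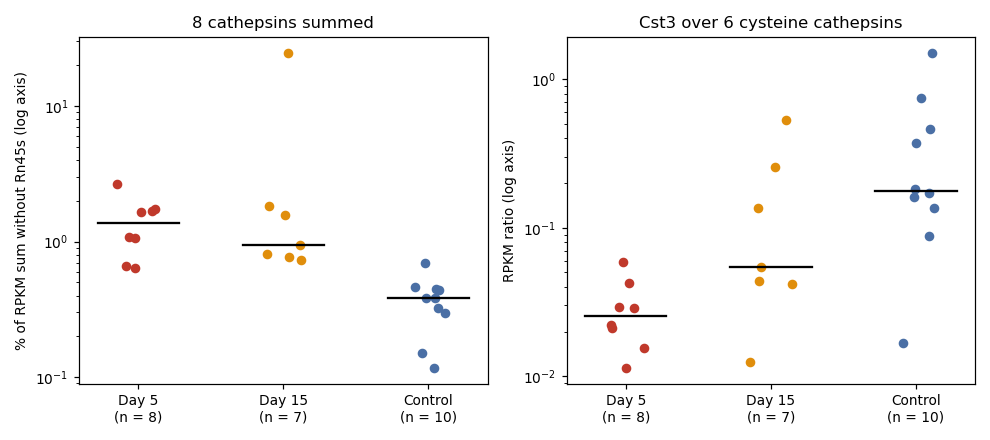
Left, the 8 cathepsins as a percentage of the RPKM sum without Rn45s (log axis) in each library; right, the RPKM ratio of Cst3 to the 6 cysteine cathepsins (log axis), with group medians as lines. The cathepsin share has a median of 1.36% at Day 5, 0.942% at Day 15 and 0.382% in Control, and the ratio a median of 0.0253, 0.0545 and 0.177.

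The ratio of inhibitor to target enzymes was low at Day 5, as a description of genes chosen with these values known. The RPKM ratio of Cst3 to the sum of the 6 cysteine cathepsins (lowest, median, highest) was 0.0114, 0.0253 and 0.0589 at Day 5, 0.0125, 0.0545 and 0.534 at Day 15, and 0.0168, 0.177 and 1.51 in Control. All Control libraries except replicate 3, at 0.0168, lay above the highest Day 5 library. Day 15 spanned both ranges, with 2 of 10 Control libraries above its highest library. How often ratios of other genes set Day 5 apart from Control in this way was not computed. RPKM measures RNA, and no protein or activity was measured.

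Within the cathepsin sum, Ctsb and Ctsd led in most libraries. Ctsb averaged 34.1% of the sum at Day 5, 38.9% at Day 15 and 33.6% in Control, and Ctsd 35.4%, 42.5% and 31.1% in that order. Ctss averaged 19.1% at Day 5, 12.0% at Day 15 and 12.6% in Control. Ctsa averaged 3.19% at Day 5, 1.72% at Day 15 and 11.5% in Control, where it was the highest cathepsin in 2 of 10 libraries. Control replicate 2 had 54.7%, and the Control mean without it was 6.76%. The medians for Ctsa were 2.12% at Day 5, 1.51% at Day 15 and 3.84% in Control. The highest cathepsin at Day 5 was Ctsb in 4 libraries, Ctsd in 3 and Ctss in 1, and at Day 15 Ctsb in 3 and Ctsd in 4.

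By median RPKM, the order at Day 5 ran Ctsd, Ctsb, Ctss, Ctsl, Ctsa, Ctsh, Ctsz, Cst3, Ctsc. At Day 15 it ran Ctsd, Ctsb, Ctss, Cst3, Ctsl, Ctsz, Ctsa, Ctsh, Ctsc, and in Control Ctsb, Ctsd, Cst3, Ctss, Ctsa, Ctsl, Ctsh, Ctsz, Ctsc. Neighbours in each order overlapped in range. Cst3 thus stood below 7 cathepsins at Day 5 and below 2 in Control. Ranked among the 4319 tested genes within a library, the median place of Ctsd was 33 at Day 5, 21 at Day 15 and 115.5 in Control, that of Ctsb 35, 28 and 148, that of Ctss 60.5, 112 and 390.5, and that of Cst3 850, 160 and 365.5.

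Day 15 was also set against Day 5. Cst3 was 1.48 (SE 0.84) higher at Day 15 than at Day 5 on the log2 scale. Over 40 alternatives it stayed above 0, with a range of 0.84 to 2.63. Some of these, such as another filter or leaving out a Control library, cannot change the difference. The share of all genes that keep their sign was not computed. Ctsc, Ctsd and Ctsb were 0.44, 0.42 and 0.21 higher at Day 15, and Ctsh, Ctsa, Ctsz, Ctss and Ctsl lay at -0.19, -0.39, -0.48, -0.73 and -0.78. Without Day 15 replicate 5, Ctsc, Ctsd and Ctsb turned to -0.22, -0.37 and -0.64, and Ctsh, Ctsa, Ctsz, Ctss and Ctsl lay at -1.001, -1.23, -1.20, -1.58 and -1.63, which left Cst3, at 0.84, as the 1 member above 0. The median was -0.19 for the members and -0.44 for all genes, and without that library it was -1.001 for the members and -0.53 for all genes. No member passed in the limma fit, where 0% of all genes did (at an unadjusted p under 0.05, 14.7% of all genes and no member).

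Day 15 replicate 5 weighed on each Day 15 mean. In that library Ctsb was the highest of the 4319 tested genes, Ctsd ranked 2 and Ctss 3, and Cst3, Ctsa, Ctsl, Ctsh, Ctsz and Ctsc ranked 7, 8, 16, 20, 40 and 60. The cathepsins made up 24.5% of its RPKM sum. It had 5266 genes at an RPKM of 1 or more, the most at Day 15. Its mean log2 level of microglia markers, 2.33, was 4th of 7 at Day 15, that of macrophage and leukocyte markers, 2.30, was 1st, and that of precursor markers, 1.62, was 1st. Without it, the Day 15 mean was 148 RPKM for Ctsb, 170.0 for Ctsd and 29.8 for Ctss.

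The members also varied together among libraries of the same group. Pearson's r between deviations from group means of log2(RPKM + 1), over 25 libraries that differ in gene number, ran from 0.49 to 0.77 (median 0.63) over the 28 pairs of cathepsins. It ran from 0.44 to 0.72 (median 0.58) over the 8 pairs with Cst3. As a background over all 25 libraries, the median r of a cathepsin with all tested genes ran from 0.18 (Ctss) to 0.27 (Ctsa). Part of the common variation was thus shared by most genes. Without Day 15 replicate 5 the cathepsin pairs ran from 0.07 to 0.62 (median 0.32) and the Cst3 pairs from 0.11 to 0.60 (median 0.36). The background was not computed without that library.

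**Figure D4:**
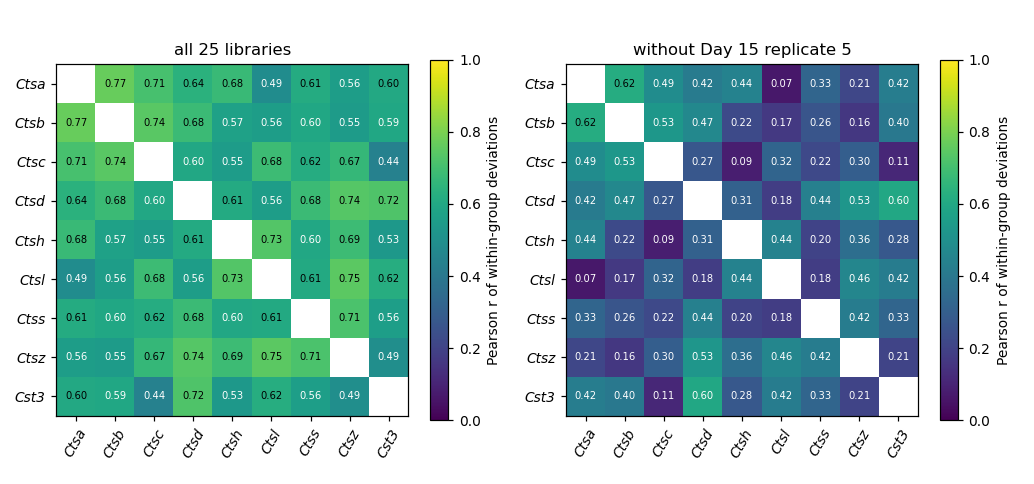
Pearson's r between each pair of the 9 genes, from deviations of log2(RPKM + 1) from group means, over all 25 libraries (left) and without Day 15 replicate 5 (right). The median over the cathepsin pairs is 0.63 on the left and 0.32 on the right.

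The genes most like each member on that measure were sought among all 4319 tested, over 25 libraries. For Ctsa they were Snx6, Pros1 and Lrp10 (r of 0.85 each), and for Ctsb Eif4g3, Lyst and Csf2rb2 (0.83 each). For Ctsc they were Csf2ra at 0.89, Cse1l at 0.87 and Tomm70a at 0.84, and for Ctsd Cttnbp2 at 0.83, Pebp1 at 0.75 and Ctsz at 0.74. For Ctsh they were Heatr3, Rsrc1 and Ctnnd1 (0.87, 0.85 and 0.83), and for Ctsl Cspp1, Crebzf and Rgs10 (0.86, 0.82 and 0.80). For Ctss they were Pcdhgc3, Gltscr1 and Ap3d1 (0.82, 0.79 and 0.79), for Ctsz Heatr3, Zfp187 and Atg3 (0.80, 0.79 and 0.78), and for Cst3 Gcnt2, Fam192a and D14Abb1e (0.82, 0.78 and 0.76). Without Day 15 replicate 5, r over these 27 pairs ran from 0.47 to 0.86, against 0.74 to 0.89 with it. It differed by over 1.5 times in 3 pairs, at 0.47 for Ctsz with Zfp187, 0.51 for Ctsz with Heatr3 and 0.54 for Ctsl with Crebzf. The pairs had been picked with that library included and were not ranked again without it. With quantile normalization the first gene stayed the same for Ctsa, Ctsc and Ctsh and changed for the other members, and none of the 3 for Ctss remained.

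Within groups, the members were set against 3 library measures, giving 81 relations of log2 level with Benjamini-Hochberg adjustment over all 81. The measures were the mean log2 level of microglia markers, that of precursor markers, and the number of genes at an RPKM of 1 or more. By Pearson's r with a two-sided permutation test (exact for 7 and 8 libraries), 9 relations passed an adjusted p of 0.05: 1 with microglia markers, 4 with precursor markers and 4 with gene number. By Spearman's rho none passed, the lowest adjusted p of that permutation test being 0.0891. Under upper-quartile scaling none of the 81 passed by Pearson's r.

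With gene number, 4 relations passed. Ctsd at Day 15 had r = 0.98 (permutation p = 0.00159, adjusted 0.0287) and rho = 0.79 (permutation p = 0.048, adjusted 0.205), and r = 0.77 without the 2 libraries farthest from the median gene number. Ctsz at Day 15 had r = 0.92 (permutation p = 0.00179, adjusted 0.0287) and rho = 0.93 (permutation p = 0.00675, adjusted 0.109), and r = 0.84 without those 2. Ctsb at Day 5 had r = 0.90 (permutation p = 0.00248, adjusted 0.0287) and rho = 0.81 (permutation p = 0.0218, adjusted 0.148), and r = 0.77 without 2. Ctsa in Control had r = 0.93 (permutation p = 0.0004, adjusted 0.0287) and rho = 0.82 (permutation p = 0.00577, adjusted 0.109), and r = 0.69 without 2.

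With precursor markers, 4 relations passed as well. In each group the mean log2 level of these markers was highest in the library with the most genes and lowest in that with the fewest. These relations are thus not separate from those with gene number, and the part of gene number in them was not tested. Ctsd at Day 15 had r = 0.87 (permutation p = 0.00238, adjusted 0.0287) and rho = 0.89 (permutation p = 0.0123, adjusted 0.142), and r = 0.65 without 2 libraries. Ctsh at Day 5 had r = 0.87 (permutation p = 0.00367, adjusted 0.033) and rho = 0.74 (permutation p = 0.0458, adjusted 0.205), and r = 0.69 without 2. Ctsc in Control had r = 0.85 (permutation p = 0.00083, adjusted 0.0287) and rho = 0.83 (permutation p = 0.00489, adjusted 0.109), and r = 0.69 without 2. Ctsa in Control had r = 0.81 (permutation p = 0.00243, adjusted 0.0287) and rho = 0.89 (permutation p = 0.0011, adjusted 0.0891), and r = 0.62 without 2.

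With microglia markers, the median r over the 9 members was 0.78 at Day 5, 0.19 at Day 15 and 0.30 in Control, and the difference between groups was not tested. The relation that passed was Ctsa in Control, with r = 0.80 (permutation p = 0.00311, adjusted 0.0315), rho = 0.73 (permutation p = 0.0195, adjusted 0.148) and r = 0.68 without the 2 farthest libraries. Ctss, an enzyme of microglia and macrophages, had r = 0.52 with microglia markers at Day 5 (permutation p = 0.191, adjusted 0.304; rho = 0.33, permutation p = 0.428, adjusted 0.568), which was -0.22 without 2 libraries and the lowest r of the 9 members at Day 5. Ctsc had r = 0.84 (permutation p = 0.0114, adjusted 0.0625; rho = 0.86, permutation p = 0.0107, adjusted 0.142), which was 0.91 without 2. Ctsl had r = 0.78 (permutation p = 0.0267, adjusted 0.0759; rho = 0.90, permutation p = 0.00456, adjusted 0.109), which was 0.94 without 2. Cst3 had the highest r, 0.89 (permutation p = 0.0135, adjusted 0.0625; rho = 0.64, permutation p = 0.0962, adjusted 0.278), which was 0.17 without 2. With upper-quartile scaling the median r over all 27 relations with microglia markers was -0.13.

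The genes around the cathepsins were examined from lists of the same pathway, tested in the limma fit over all 4319 genes. At Day 5, 3 of the 26 related genes tested rose against Control (11.5%), where 6.02% of all genes did. The lists hold mostly lysosomal genes, so what these 3 genes share follows from the lists. The lists were also chosen with earlier results of these data known. The p-values do not allow for that choice, and nothing is read from the count of 3. Lgmn encodes legumain, a lysosomal protease that cleaves after asparagine and processes cathepsins. Tpp1 encodes tripeptidyl peptidase, a lysosomal exopeptidase, and Igf2r encodes the mannose-6-phosphate receptor that brings new hydrolases to the lysosome.

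Lgmn had a lowest, median and highest RPKM of 5.90, 23.1 and 409 at Day 5, 0.317, 3.51 and 11.9 at Day 15, and 0.385, 1.91 and 16.9 in Control. At Day 5, 5 of 8 libraries exceeded the highest Control library, and replicate 10 held the value of 409. Its difference was 3.09 (SE 0.68; limma adjusted p = 0.00717), and it passed with each of the 25 libraries left out in turn (highest limma adjusted p 0.024). Tpp1 had 6.00, 17.3 and 145.5 RPKM at Day 5, 1.85, 3.83 and 17.1 at Day 15, and 0.352, 2.42 and 23.6 in Control. Its groups overlapped, with 3 of 8 Day 5 libraries above the highest Control library, and the difference was 2.28 (SE 0.68; limma adjusted p = 0.0371). Igf2r had 0.841, 6.64 and 61.9 RPKM at Day 5, 0.170, 0.904 and 8.48 at Day 15, and 0.0981, 0.354 and 11.5 in Control. It overlapped as much, with 3 of 8 Day 5 libraries above the highest Control library, and the difference was 1.93 (SE 0.61; limma adjusted p = 0.048).

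Those calls depended on the scaling. With upper-quartile scaling the limma adjusted p was 0.0733 for Lgmn, 0.331 for Tpp1 and 0.351 for Igf2r, and with gene number as a covariate it was 0.282 for Lgmn, 0.392 for Tpp1 and 0.491 for Igf2r. Leaving out single libraries ended the call of Tpp1 in 9 of 25 cases (limma adjusted p 0.0577 to 0.0767) and that of Igf2r in 14 of 25 (0.0526 to 0.0938). The same macrophage and microglia markers as above were higher in these Day 5 libraries, and their part was not tested.

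Of the other lysosomal peptidases, 4 of 8 were tested and 2 rose, with a median of 1.81 against 0.61 for all genes. Prcp and Scpep1, both carboxypeptidases, had differences of 1.34 and 1.09 (limma adjusted p = 0.0761 and 0.248). Of 16 genes that sort lysosomal enzymes, 13 were tested and 1 rose, with a median of 0.67 against 0.61 for all genes, and that count is near the 6.02% of all genes that rose. In that list the endocytic receptor Lrp1 had 2.20 (limma adjusted p = 0.0685) and progranulin, Grn, which regulates lysosomal function, had 2.08 (0.0694).

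Of 12 genes of the MHC class II pathway, which Ctss serves, 5 were tested and none passed at Day 5, with a median of 1.19. H2-Aa, a chain of the class II molecule, had 2.26 (limma adjusted p = 0.057), and Cd74, the invariant chain that Ctss trims, had 2.04 (0.117). Ifi30, a lysosomal thiol reductase, had 1.19 (0.0646). Of 27 other cystatins and cathepsin inhibitors, 2 were tested and neither passed, with 1.03 for the intracellular inhibitor Cstb (limma adjusted p = 0.287) and 1.75 for the serpin Serpina3n (0.160). Of the MiT/TFE transcription factors only Tfe3 was tested, with 0.39 (limma adjusted p = 0.552).

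Among the 15 other cathepsins of the list, 1 was tested, the widely expressed Ctso, with 0.63 (limma adjusted p = 0.513). The 14 others, among them the osteoclast protease Ctsk and the neutrophil protease Ctsg, each averaged below 1 RPKM at Day 5 and in Control. Of those 14, 10 also did so at Day 15, where Ctsg averaged 6.31 RPKM through a value of 43.9 RPKM in replicate 6 and was at a median of 0. Ctsk averaged 2.66 RPKM at Day 15 through 18.5 RPKM in replicate 5, and the mean without it was 0.016 RPKM.

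At Day 15 against Control, none of the 26 related genes tested passed in the limma fit, and neither did any at Day 15 against Day 5. Lgmn stood at -2.61 (limma adjusted p = 0.193) and Tpp1 at -1.75 at Day 15 against Day 5, and at -2.80 and -1.73 without Day 15 replicate 5.

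**Figure D5:**
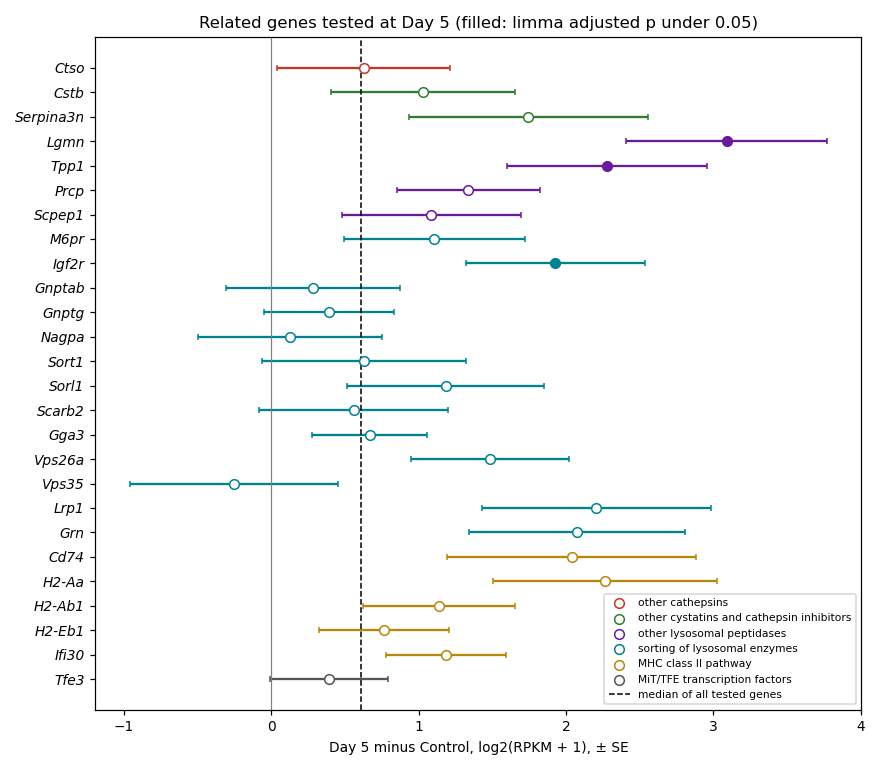
Day 5 minus Control in log2(RPKM + 1), ± SE, for the 26 related genes tested, coloured by list; filled points passed a limma adjusted p of 0.05 and the dashed line is the median of all genes, 0.61. Lgmn, Tpp1 and Igf2r are the filled points, at 3.09, 2.28 and 1.93.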

How the data were processed

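Per the labels' protocols, cDNA from laser-captured oligodendrocyte precursors was amplified with a Nugen Ovation kit and read as 100 bp paired ends, 3 samples to a lane. The submitters' processing notes name HTSeq, STAR 2.1.4a, CASAVA 1.8.3 and build mm9. The authors deposited 1 table of RPKM values for 25 libraries. The computation of RPKM and the use of strand are not stated there, so overlapping genes and related copies are uncertain. Amplification of little RNA widens the spread and can drop low transcripts. The values carry no depth, so no counting interval is given, and p-values rest on the spread among these libraries, part of which may be technical.

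Of 23351 genes, 4319 reached 1 RPKM in 7 or more libraries and were fitted as log2(RPKM + 1), which shrinks the differences of low genes. All 9 members passed this filter, which high values in any groups can satisfy. The fit was made for all 3 groups together with limma 3.58.1 in R 4.3.3 (trend and robust variance, two-sided, Benjamini-Hochberg adjustment over all 4319). It was also run on simulated data with genes drawn independently. Those data lacked the shift and the variation that genes share here, so they do not show how often false calls arise in these libraries. Permutation tests ran in Python 3.11.15 with scipy 1.17.1, with 100000 resamples for the 10 Control libraries. Outlying libraries were sought by Dixon's ratio on the log2 scale. No 2 libraries were copies, the highest correlation between any pair being 0.425. Even the most alike pair thus agreed weakly over the 4319 genes, which limits the levels, ranks and correlations given here. Promoter sequences came from RefSeq on GRCm38.p6, a later build than mm9.

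The members, pathway lists and marker lists were chosen with earlier results of these data known. Genes named are the 9 members, every related gene that passed, the 3 of each related list with the smallest p at Day 5, the first 2 markers of a cell type list and the 3 genes most like each member, leaving out predicted models and ribosomal RNA. One gene under this rule is not reported here. Ctsk and Ctsg were named after their values were seen. Other scalings, pseudocounts, filters, covariates, blocks and left-out libraries were tried.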

Additional observations from a re-analysis of the deposited data

Results flagged for a closer look

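7 of the 27 combinations of member and group held a library far from the rest of its group on the log2(RPKM + 1) scale, by Dixon's ratio, where chance gives about 1 in 20. In Day 15 replicate 5, Ctsa had 305.8 RPKM where the next Day 15 library had 16.7, and Ctsh had 189.6 where the next had 10.8. In the same library Ctsl had 205 RPKM where the next had 4.51, and Ctss had 1377 where the next had 46.8. Ctsz had 101.4 RPKM there, and the next Day 15 library had 6.08. In Control, Ctsc had 2.61 RPKM in replicate 2 where the next library had 0.781, and Ctss had 36.7 RPKM in replicate 5 where the next had 8.21.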

How the results depend on the processing

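Of the recomputed member differences, 1075 moved by less than the spread between replicates (the residual SD of the gene) and 5 by more. Another filter, or leaving out a library of neither compared group, cannot change a difference. The SD was wide, from 1.24 to 1.90 on the log2 scale, so the count does not show that the differences were stable. Ctsb at Day 5 moved within it from 2.86 to 1.03 with gene number as a covariate. The recomputed Day 5 differences of Lgmn, Tpp1 and Igf2r kept their direction, 72 with and 48 without their call. The gene counts below are out of 4319 tested, except without a filter and at a mean RPKM of at least 5. Those settings tested other numbers of genes, so their counts cannot be set beside the rest as shares. Since the members were picked with these values known, nothing is read from how many of them passed. At Day 5 against Control, 261 genes, 3 members and 3 related genes passed. In the same order these were 553, 6 and 11 with a pseudocount of 0.1, 24, 0 and 0 without a filter, 119, 5 and 6 at a mean RPKM of at least 5, and 597, 5 and 10 with library weights. They were 22, 0 and 0 with upper-quartile scaling (18 higher, 4 lower, against 260 and 1), 36, 0 and 0 with sum scaling (31 higher, 5 lower), 20, 0 and 0 with quantile normalization (14 higher, 6 lower), 0, 0 and 0 with gene number as a covariate, and 398, 5 and 5 with the range of replicate numbers as a covariate. They were 4, 0 and 0 within replicate numbers 1 to 6, 4, 0 and 0 within 7 to 10, and 7, 0 and 0 without the 5 libraries of fewest genes. With the compared groups fitted alone they were 365, 5 and 3, and without Day 5 replicate 4 and Day 15 replicates 5 and 6 they were 238, 5 and 3. Leaving out 1 library gave 96 (without Day 5 replicate 3) to 418 genes (without Day 5 replicate 7), 1 to 5 members and 1 to 8 related genes. The member count of 1 came from leaving out Day 5 replicate 1, Day 5 replicate 3, Control replicate 7 or Control replicate 9.

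At Day 15 against Control, 4 genes and no member passed. These became 38 genes, 2 members and 1 related gene with a pseudocount of 0.1, 11, 2 and 1 at a mean RPKM of at least 5, 9 genes with upper-quartile scaling, 29 with library weights, 1 with gene number as a covariate, 2 with the compared groups alone and 0 without a filter, within either range of numbers, or without the 5 libraries. With the range of numbers as a covariate 5 genes passed, 1 of them a member. Leaving out 1 library gave 0 to 6 genes there, and 0 to 8 at Day 15 against Day 5 (8 without Day 15 replicate 5). Relations passing within groups, 1, 4 and 4 for microglia markers, precursor markers and gene number, were 0, 0 and 0 with upper-quartile scaling and 0, 0 and 1 with a pseudocount of 0.1. The median r of cathepsin pairs, 0.63, was 0.43 with quantile normalization and 0.32 without Day 15 replicate 5, an alternative chosen after seeing the data. The cause of these changes was not tested.

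Samples with the same replicate number did not deviate together (20 pairs, r from -0.06 to 0.08). In libraries that differ this much, such values cannot show whether the numbers pair the samples or mark a batch. In Control, genes above 0 RPKM numbered 9588 to 14142 in replicates 1 to 6 and 16013 to 17407 in replicates 7 to 10. At Day 5 and at Day 15 those ranges of numbers overlapped. With the replicate block, 499 of the 4319 genes tested, 8 members and 11 related genes passed at Day 5. Nothing is read from that member count, since the members were picked with these values known. The unknown depth limits what low genes such as Ctsc can show.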

Other observations

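Cst7, cystatin F, an inhibitor of cathepsins in immune cells, fell below the filter and was not tested. Its lowest, median and highest RPKM were 0.0115, 0.207 and 0.993 at Day 5, 0.667, 2.54 and 6.26 at Day 15, and 0, 0.0429 and 12.8 in Control. At Day 15, 5 of 7 libraries reached an RPKM of 1, against no Day 5 library and 1 of 10 Control libraries, replicate 5. Control overlapped Day 15 through that library. Day 5 overlapped Day 15 too, with 0.993 RPKM in Day 5 replicate 3 and 0.667 RPKM in Day 15 replicate 8. Dpp7, a dipeptidyl peptidase of the lysosome that was also untested, averaged 0.687 ± 0.798 RPKM at Day 5 (SD, n = 8), 2.03 ± 3.99 at Day 15 (SD, n = 7) and 0.0176 ± 0.0529 in Control (SD, n = 10). Its highest Control library was exceeded by 6 of 8 Day 5 libraries and 5 of 7 Day 15 libraries. That Control library had only 0.168 RPKM, and the Dpp7 medians were 0.437 at Day 5, 0.253 at Day 15 and 0 in Control. Such low values tell little, and the share of all genes with such counts was not computed. Both genes were named after their values were seen.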
